A study of Mus musculus with 6 samples.

Results

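Foxp3 is the transcription factor that defines regulatory T cells (Tregs), the CD4 T cells that restrain immune responses. The genes described here are Foxp3, the long noncoding RNA Flicr from the same locus, and 8 genes whose proteins work with Foxp3: Foxp1, Foxp4, Runx1, Runx3, Cbfb, Kat5, Stub1 and Usp7. They were chosen by name for what is known of these proteins, and all 10 were found among the 55840 genes of the deposited table. All 10 also passed the filter on low counts.

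RNA was sequenced from Tregs of mouse spleen and lymph nodes, in 3 wild-type (WT) libraries and 3 with the genotype label Exon2KO, named Foxp3 delta 2 in the series title. By the labels, the 3 Exon2KO libraries share that deletion and the WT libraries lack it. No treatment, time point, strain, age or gate for sorting is given in the sources used here, nor is the way the exon was removed, the number of mice behind a library, or whether cells were heterozygous or homozygous. Libraries are named by genotype and the number in their column heading (2, 6 or 20), as in WT 20, because these numbers could not be tied to the titled replicates 1 to 3.

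Total counts ran from 17998216 to 21003496 per library, so that 3 counts, taken as the smallest measurable level, correspond to 0.141 to 0.169 CPM (counts scaled to the size of the library). The first principal component, with 33.2% of the variance, set WT 20 and Exon2KO 20 apart from the other libraries. The second, with 29.9%, separated the genotypes. Xist lay between 579 and 742 CPM in the 6 libraries, while Eif2s3y, Uty, Kdm5d and Ddx3y, which lie on the Y chromosome, had 0 counts in each of them. Markers of other cells were low: summed over each list, B cell markers took 33.4 to 45.9 CPM, myeloid markers 75.1 to 104 and erythroid markers 3.49 to 17.4. The stromal and endothelial sum of 165 to 225 CPM was mostly Pecam1, which T cells can also carry, and Col3a1 had 0 counts in every library. CD8 T and NK cell markers summed to 27.1 to 58.7 CPM and helper cytokine genes with Cd40lg to 18.0 to 53.3 CPM.

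As background, the Foxp3 protein binds DNA through a forkhead domain and acts in large complexes with other factors. Foxp1 and Foxp4 are forkhead relatives that can pair with Foxp3. Runx1 and Runx3 bind DNA together with their shared partner Cbfb, associate with Foxp3, and also act on the enhancers of the Foxp3 gene. Kat5 (also called TIP60) is an acetyltransferase that modifies Foxp3. Stub1 is a ubiquitin ligase that marks Foxp3 for degradation, and Usp7 is a deubiquitinase that protects it. Flicr is transcribed from the Foxp3 locus and is known to modulate Foxp3 expression in cis.

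The deleted exon is shown first, because it sets what the RNA counts can and cannot register. Foxp3 lies on chromosome X, from 7573644 to 7595245 on the plus strand of GRCm38. The second exon of the transcript Foxp3-201, which is also its second coding exon, lies at chrX:7587074-7587178 in GENCODE mouse release 21. The labels give no coordinates for the deletion, so the link to this exon rests on the name alone. The exon is given below in capitals with 30 transcript bases of exons 1 and 3 on either side, followed by the join of exon 1 to exon 3 that would form without it, with the 6 bases on either side of the join in capitals.
Foxp3 exon 2: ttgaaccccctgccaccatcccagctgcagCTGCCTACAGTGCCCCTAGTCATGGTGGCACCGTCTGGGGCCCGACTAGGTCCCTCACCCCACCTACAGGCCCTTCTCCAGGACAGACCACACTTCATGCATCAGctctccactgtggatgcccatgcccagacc
Exon 1 to exon 3 join: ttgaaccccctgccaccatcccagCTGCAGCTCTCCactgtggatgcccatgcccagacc

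Exon 2 is 105 bases long, 61.9% of them G or C. It encodes codons 70 to 104 of the 429 in Foxp3-201, and since its 105 bases are 35 whole codons after 69 whole codons, its loss keeps the reading frame. Of 10 annotated Foxp3 transcripts, 8 contain it. Foxp3-208 spans the position without it and already holds the exon 1 to exon 3 join printed above, and Foxp3-209 ends before it. The exon makes up 2.94% of Foxp3-201 and 2.29% of the 4577 exon bases over which the deposited table counted Foxp3. If every transcript lost it and nothing else changed, the log2 level would move by -0.043. The gene-level counts therefore check the presence of Foxp3 RNA but not the absence of exon 2, so they do not check the labels.

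The locus is crowded. Flicr (chromosome X, 7573600 to 7581027, plus strand) shares 853 exon bases with Foxp3 on the same strand, which is 23.8% of the exon bases of Flicr and 18.6% of those of Foxp3, in exons that lie upstream of the start of Foxp3-201, some of which the short transcript Foxp3-209 holds. On the opposite strand, Foxp3 shares 266 exon bases with Ppp1r3f, 373 with Gm36995 and 590 with Ccdc22. The strand setting of the read counting is not given in the sources used here. Reads in these shared stretches cannot be assigned to one gene with certainty. Flicr is among the genes concerned, with 215 to 354 counts per library against 10934 to 16437 for Foxp3.

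**Figure D1:**
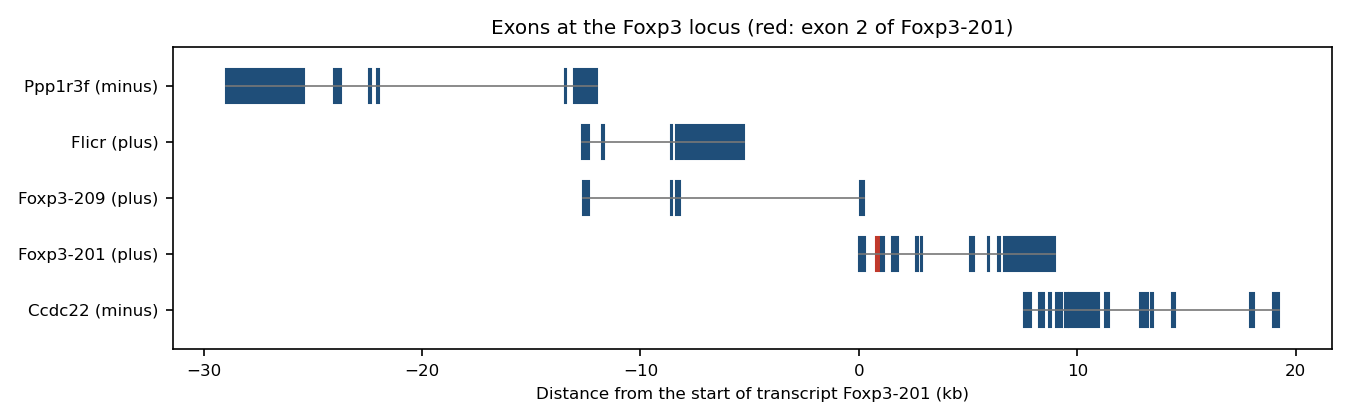
Exons at the Foxp3 locus in kb from the start of transcript Foxp3-201, with 1 row for each transcript or gene and its strand in the label. The red box is exon 2 of Foxp3-201; the exons of Flicr and of Foxp3-209 coincide at their left ends, and the right end of Foxp3-201 lies over the left end of Ccdc22.

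Foxp3 was expressed at a high level in both genotypes. It stood at 783 CPM in WT 2, 602 in WT 6 and 751 in WT 20, and at 826 CPM in Exon2KO 2, 684 in Exon2KO 6 and 925 in Exon2KO 20. The groups overlapped, although within each column number the Exon2KO library was the higher one. The mean was 712 ± 96.5 CPM (SD, n = 3) in WT and 812 ± 121 CPM (SD, n = 3) in Exon2KO. The log2 fold change of Exon2KO over WT was 0.19 (standard error (SE) 0.13, 95% interval -0.11 to 0.49), with an adjusted p of 0.693 from edgeR's quasi-likelihood test. With the column number as a block, the value was 0.19 (SE 0.07, interval 0.04 to 0.33) and the adjusted p 0.106. Foxp3 was thus not called in either fit. The interval without the block corresponds to a fold between 0.926 and 1.40. Without the block and with 1 library left out, the value ran from 0.08, without Exon2KO 20 or without WT 6, to 0.29, without Exon2KO 6, and was not called.

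Flicr was a low transcript. It was at 15.6 CPM in WT 2, 11.8 in WT 6 and 16.2 in WT 20, against 18.3 in Exon2KO 2, 13.1 in Exon2KO 6 and 19.9 in Exon2KO 20. Like Foxp3, it was lowest in the library numbered 6 of each genotype and higher in Exon2KO within each number, and the groups overlapped. Its log2 fold change was 0.23 (SE 0.19, interval -0.19 to 0.65, adjusted p = 0.754), and with the block the adjusted p was 0.262. Per unit of length (CPM divided by the gene's exon length in kb), Flicr reached 0.0261 ± 0.00136 (SD, n = 3) of the Foxp3 level in WT and 0.0268 ± 0.00198 (SD, n = 3) in Exon2KO. These ratios overlapped, and a two-sided exact permutation test gave p = 0.9 where 0.1 is the smallest p for 3 against 3. The shared exon bases named above enter both terms of this ratio.

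Of the 10 genes, 0 were called at an adjusted p under 0.05 in the fit without the block, where 348 of 14919 tested genes (2.33%) were called, 0.757% as higher in Exon2KO and 1.58% as lower. At an unadjusted p under 0.05 there were 4 of the 10, Foxp1, Runx3, Kat5 and Usp7, against 12.1% of all tested genes, and limma-voom also called 0 of the 10, beside 1.94% of all tested genes. The fit with the column number as a block called 2 of the 10, Foxp1 as higher and Runx3 as lower, beside 9.72% of all tested genes (3.93% higher and 5.79% lower). DESeq2 without a block called the same 2 genes, beside 4.6% of the genes to which it gave an adjusted p (1.56% higher and 3.05% lower). In 4 of the 10 genes the groups did not overlap, with Foxp1, Kat5 and Usp7 higher and Runx3 lower in every Exon2KO library, against 17.7% of all tested genes (8.35% higher and 9.32% lower). Without both libraries numbered 20 and without the block, 0 of the 10 were called, beside 2.43% of all tested genes (0.931% higher and 1.49% lower). The median log2 fold change was 0.13 over the 10 genes and 0.0084 over all tested genes.

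**Figure D2:**
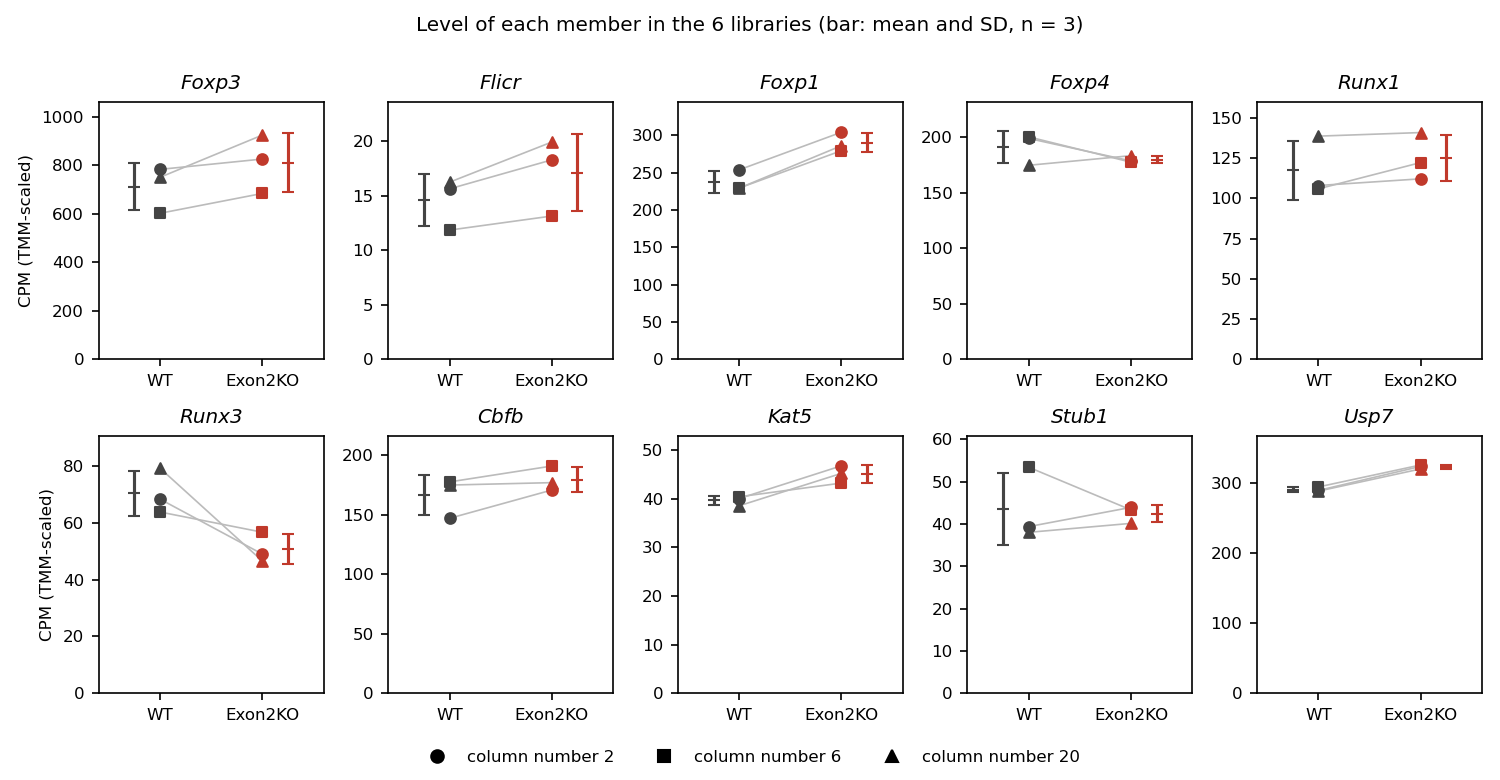
Level of each of the 10 genes in CPM on TMM-scaled library sizes, 1 panel per gene from 0, with WT in grey and Exon2KO in red, the marker giving the column number, grey lines joining libraries of 1 number, and bars giving mean and SD of 3 libraries. Foxp1, Kat5 and Usp7 sit higher and Runx3 lower in all Exon2KO libraries, while the groups overlap in the other 6 panels.

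Among the forkhead relatives, Foxp1 was higher in Exon2KO in each library. Foxp1, which helps keep T cells in a resting state, was at 254 CPM in WT 2, 229 in WT 6 and 229 in WT 20, and at 304 in Exon2KO 2, 279 in Exon2KO 6 and 286 in Exon2KO 20. The lowest Exon2KO library lay above the highest WT library. The log2 fold change was 0.29 (SE 0.08, interval 0.12 to 0.46), a fold of 1.22, with an adjusted p of 0.111. With the block the same size of change had an SE of 0.06, an interval of 0.16 to 0.41 and an adjusted p of 0.00456, so that Foxp1 rose by that test and not by the other. Within numbers 2, 6 and 20 the log2 ratios were 0.26, 0.28 and 0.32. The authors' deposited table gave Foxp1 a log2 fold change of 0.29 with an adjusted p of 0.0466, where 2.55% of the genes with an adjusted p were under 0.05.

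Foxp4, the other forkhead relative, moved little. WT libraries held 199, 200 and 175 CPM of Foxp4 for numbers 2, 6 and 20, and Exon2KO libraries held 179, 178 and 184. The order of the genotypes differed between numbers: Exon2KO was lower in numbers 2 and 6 and higher in number 20. Its log2 fold change was -0.09 (SE 0.08, interval -0.26 to 0.08, adjusted p = 0.777; 0.492 with the block).

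Within the Runx group, Runx3 carried the largest log2 difference of all 10 genes, and it was lower in Exon2KO. Runx3 acts in CD8 T cells, NK cells and helper cells as well as with Foxp3. It was at 68.2 CPM in WT 2, 63.7 in WT 6 and 79.1 in WT 20, against 49.0 in Exon2KO 2, 56.6 in Exon2KO 6 and 46.5 in Exon2KO 20. No Exon2KO library reached the lowest WT library. The log2 fold change was -0.47 (SE 0.11, interval -0.71 to -0.23), a fold of 0.721, with an adjusted p of 0.059. With the block it was -0.47 (SE 0.10, interval -0.69 to -0.25) with an adjusted p of 0.0135, so that Runx3 fell by that test. The libraries numbered 20 held both the highest WT and the lowest Exon2KO value: the log2 ratio was -0.77 within number 20, -0.48 within number 2 and -0.17 within number 6. Without both libraries numbered 20, the fit without the block gave -0.32 (adjusted p = 0.204). That fit had not called Runx3 with all 6 libraries either. No fit with the block was run without number 20. The authors' deposited table listed Runx3 at -0.47 (log2 fold change), with 0.0128 as its adjusted p.

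Other cells that carry Runx3 were looked at through their markers. The 6 markers of CD8 T and NK cells summed to 27.1, 30.5 and 35.0 CPM in WT 2, WT 6 and WT 20 and to 29.4, 58.7 and 32.2 CPM in the Exon2KO libraries of the same numbers. The sum was higher in Exon2KO within numbers 2 and 6 and lower within number 20, where the Runx3 ratio was lowest. The high value of Exon2KO 6 came mostly from Nkg7 (25.7 CPM) and Eomes (22.5 CPM). Eomes was higher in Exon2KO within every number (log2 ratios of 0.25, 1.63 and 0.65 for numbers 2, 6 and 20), with overlapping groups, and was not called without the block (adjusted p = 0.513) or with it (0.88, adjusted p = 0.0612). Klrb1c was lower in every Exon2KO library (2.63, 2.37 and 3.57 CPM in WT against 1.06, 2.21 and 1.86) without being called with or without the block (adjusted p = 0.440 without it). The sum of the 8 B cell markers was lower in every Exon2KO library, 33.4 to 35.6 CPM against 40.2 to 45.9 in WT. Most of that difference was Cd79b (21.6 ± 1.23 CPM in WT and 15.2 ± 1.56 in Exon2KO; SD, n = 3), which was called with the block (-0.51, adjusted p = 0.00501) and not without it (adjusted p = 0.0828). The sum of the 8 myeloid markers was lower in Exon2KO within every number, 86.6, 90.7 and 104 CPM in WT against 75.1, 87.5 and 90.1 for numbers 2, 6 and 20, and the groups overlapped. Most of that sum was Cst3, with means of 58.5 CPM in WT and 53.3 in Exon2KO, called in neither fit. Cd68 went the other way, with a log2 fold change of 0.23, and was called in neither fit. Lyz2, also a myeloid marker, was called as lower with the block (-0.40, adjusted p = 0.0413) and not without it (adjusted p = 0.865). Siglech was lower in every Exon2KO library, 0.113 to 0.500 CPM against 0.752 to 0.892 in WT, and was not called with the block (adjusted p = 0.146) or without it (adjusted p = 0.337). The erythroid sum was also lower within every number, 11.3, 17.4 and 5.40 CPM in WT against 9.89, 13.7 and 3.49. Pecam1, which makes up most of the stromal and endothelial sum, was higher within every number and called with the block (0.23, adjusted p = 0.0164), but not without it (adjusted p = 0.317). The other 2 tested genes of that list, the collagen genes Col1a1 and Col1a2, had negative log2 fold changes (-1.20 and -1.54) and were called in neither fit (adjusted p = 0.377 and 0.419; 0.0889 and 0.173 with the block). Col1a1 was lower in Exon2KO within every number and Col1a2 within numbers 2 and 20, so that the median over the 3 tested genes was -1.20. The 4 helper T cell genes summed to 18.0, 22.3 and 18.9 CPM in WT and 32.2, 53.3 and 19.3 in Exon2KO for numbers 2, 6 and 20. Cd40lg among them was called as higher with the block (0.82, adjusted p = 0.00837) and not without it (adjusted p = 0.240). Ifng was higher in Exon2KO within numbers 2 and 6, lower within number 20, and called in neither fit. Il2 and Il4 were under the filter on low counts. The part of these cells in the result was not tested. In bulk RNA, fewer cells that carry a gene and less of its RNA per cell cannot be told apart.

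Runx1 differed more between column numbers than between genotypes. It was at 108 CPM in WT 2, 106 in WT 6 and 139 in WT 20, and at 112 in Exon2KO 2, 122 in Exon2KO 6 and 141 in Exon2KO 20. Both libraries numbered 20 were higher than the other 4. The log2 fold change between genotypes was 0.09 (SE 0.12, interval -0.19 to 0.37, adjusted p = 0.885; 0.424 with the block).

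Cbfb, the partner that both Runx proteins need for stable DNA binding, stood at 147, 178 and 175 CPM in WT and at 171, 191 and 177 CPM in Exon2KO for numbers 2, 6 and 20. Exon2KO was the higher library within each number, by log2 ratios of 0.22, 0.10 and 0.02, and the groups overlapped. Its log2 fold change was 0.11 (SE 0.09, interval -0.10 to 0.31, adjusted p = 0.765; 0.316 with the block).

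The make-up of the Runx group was compared per unit of length, on CPM per kb. The ratio of Runx3 to Runx1 was 1.52, 1.45 and 1.37 in WT 2, WT 6 and WT 20, and 1.05, 1.11 and 0.794 in Exon2KO 2, Exon2KO 6 and Exon2KO 20. On this scale every WT library held more Runx3 than Runx1 RNA, and in Exon2KO the ratio lay near 1 or under it. The lengths join all annotated exons of a gene, 12025 bases for Runx1 and 5003 for Runx3. In CPM, Runx1 was above Runx3 in every library, so the position relative to 1 depends on these lengths. The means were 1.45 ± 0.074 and 0.986 ± 0.169 (SD, n = 3 each), which is -0.57 on the log2 scale. The groups did not overlap, and the two-sided exact permutation test gave p = 0.1, the smallest it can give, or 0.15 adjusted over the 3 ratios examined. Cbfb relative to the sum of Runx1 and Runx3 was 1.87, 2.37 and 1.84 in the WT libraries. In the Exon2KO libraries it was 2.57, 2.55 and 2.42, which is 0.32 more on the log2 scale. These groups did not overlap either (two-sided exact permutation p = 0.1, adjusted 0.15). The permutation tests, that of the Flicr ratio included, did not pair libraries by column number. Within each number the Runx3 to Runx1 ratio was lower in Exon2KO and the Cbfb ratio higher. Because Runx3 enters both ratios, they are not separate observations.

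Promoter sequence was read for the same group, since Runx proteins bind the letters TGTGGT. RefSeq gave 16 start sites for the 10 genes, and the 250 bases before each were searched on both strands (GRCm38.p6). TGTGGT or its reverse complement ACCACA occurred in 1 of these 16 windows, against 14.05% of 32851 windows over all genes. That window is the upstream start of Runx3, chr4:135120395-135120644 on the plus strand, where it occurs in a pair, in capitals here.
Runx3 upstream promoter: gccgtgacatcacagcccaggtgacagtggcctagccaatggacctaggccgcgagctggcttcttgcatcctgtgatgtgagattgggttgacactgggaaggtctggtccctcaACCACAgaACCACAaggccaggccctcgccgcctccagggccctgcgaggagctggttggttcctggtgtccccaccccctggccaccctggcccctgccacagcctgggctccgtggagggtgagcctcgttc

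The forkhead letters TGTTTAC or GTAAACA occurred in 0 of the 16 windows, against 3.17% of all windows. A match describes the letters only and no binding was measured in these samples. The gene-level counts do not tell which of the start sites of Runx3 was used.

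Of the enzymes that modify Foxp3, the acetyltransferase Kat5 was at 40.1, 40.4 and 38.6 CPM in WT 2, WT 6 and WT 20 and at 46.8, 43.2 and 45.2 CPM in the Exon2KO libraries of the same numbers. The groups did not overlap. Kat5 had a log2 fold change of 0.18 (SE 0.08, interval 0.00020 to 0.37), and it was not called (adjusted p = 0.411; 0.172 with the block). Kat5 shares 426 exon bases, 12.1% of its own, with Rnaseh2c on the opposite strand, which had 5522 counts in all against 4791 for Kat5. Rnaseh2c itself had a log2 fold change of -0.10 (adjusted p = 0.755), opposite in sign to Kat5.

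Usp7, the deubiquitinase, was the steadiest of the 10 genes within a genotype. Its levels were 289, 294 and 288 CPM in WT and 324, 326 and 320 CPM in Exon2KO for numbers 2, 6 and 20. The groups lay apart with little spread inside either: 291 ± 3.20 against 323 ± 2.85 CPM (SD, n = 3 each). On the log2 scale the fold change was 0.15 (SE 0.07, interval 0.0029 to 0.30), a fold of 1.11, and it was not called (adjusted p = 0.396; 0.131 with the block). The fit assigned Usp7 a coefficient of variation between libraries of 8.24%, and the 1000 genes nearest to it in level had lower values in 1.4% of cases.

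Stub1, the ubiquitin ligase, was at 39.4, 53.4 and 38.1 CPM in WT and at 44.0, 43.3 and 40.2 CPM in Exon2KO for numbers 2, 6 and 20. WT 6 stood above all the others. For Stub1 the log2 fold change was -0.04 (SE 0.13, interval -0.33 to 0.26, adjusted p = 0.960; 0.917 with the block), and without WT 6 it was 0.14 (adjusted p = 0.713). Stub1 shares 1084 exon bases, 42.3% of its own, with Jmjd8 on the opposite strand. Jmjd8 had 1461 counts in all against 4865 for Stub1, and its log2 fold change was -0.0068 (adjusted p = 0.996).

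**Figure D3:**
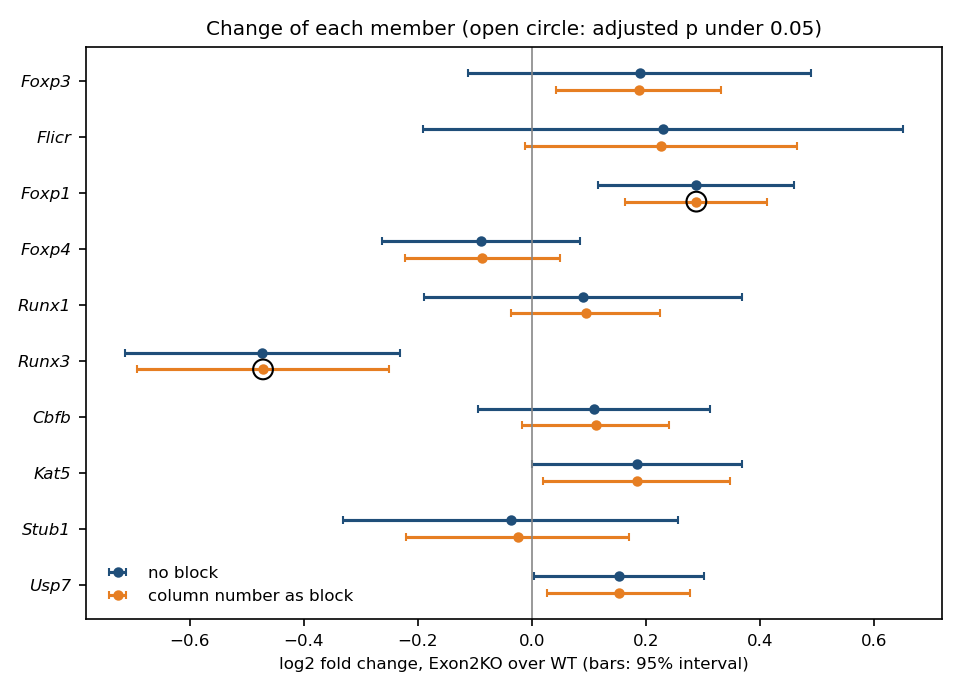
Log2 fold change of Exon2KO over WT for the 10 genes with 95% intervals, from the fit without a block (blue) and with the column number as a block (orange). Open circles mark an adjusted p under 0.05, reached by Foxp1 and Runx3 in the fit with the block.

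Levels of different genes can be set side by side per unit of length, here as CPM per kb of exon. Foxp3 was the highest of the 10, at 156 ± 21.1 CPM per kb in WT and 177 ± 26.4 in Exon2KO (SD, n = 3 each), 3.35 times the mean level of the next gene. Next came Cbfb (47.9 in WT and 51.6 in Exon2KO), Usp7 (37.4 and 41.6) and Foxp4 (38.9 and 36.5). Foxp1 followed at 17.3 and 21.1 CPM per kb, Stub1 at 17.0 and 16.6, Runx3 at 14.1 and 10.1, Kat5 at 11.3 and 12.8, and Runx1 at 9.77 and 10.4. Flicr was last with 4.07 and 4.78 CPM per kb. Over the 6 libraries, the ranges of neighbours in this order did not overlap between Foxp3 and Cbfb, Cbfb and Usp7, Foxp4 and Foxp1, and Runx1 and Flicr. The lowest Cbfb value was 42.3 CPM per kb and the highest Usp7 value 41.9. All other neighbours overlapped, and Runx3 was above Kat5 in 3 of the 6 libraries.

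Some of the 10 genes varied between the column numbers. Tested on the number terms of the fit with the block, 3 of the 10 differed between numbers 2, 6 and 20 at an adjusted p under 0.05, against 10.4% of all tested genes. Foxp3 was 0.33 lower on the log2 scale in number 6 than in number 2 (fitted value -0.33, adjusted p = 0.0144), and Flicr moved with it (-0.44, adjusted p = 0.0413). Runx1 was higher in number 20 than in number 2 by 0.35 on the log2 scale (adjusted p = 0.0112). The receptor gene Il2ra was also lowest in number 6 of each genotype, with 587 CPM in WT 6 and 379 in Exon2KO 6. Cd40lg, which helper T cells carry, was highest in these libraries of each genotype (16.8 CPM in WT 6 and 38.5 in Exon2KO 6), and its part in the result was not tested. What the numbers stand for is not given in the sources used here.

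The pattern of Foxp3 over the 6 libraries was compared with that of 7001 protein-coding genes with a mean of at least 20 CPM, as the mean absolute difference of log2 CPM after centring each gene on its own mean. The nearest were Adam19 at 0.032, Bcl9 at 0.032, Gse1 at 0.044, Uba7 at 0.051 and Usp22 at 0.051, where the median candidate was at 0.195. Adam19 went from 313, 238 and 323 CPM in WT to 335, 278 and 362 CPM in Exon2KO, with its low values in number 6 as in Foxp3. Usp22, a deubiquitinase known to act on Foxp3, went from 66.3, 52.0 and 60.2 to 74.6, 58.9 and 74.3 CPM. None of these 5 genes was called in the fit without the block, where their log2 fold changes ran from 0.11 to 0.23, and with the block Gse1 was called (0.23, adjusted p = 0.0257). Among the other 9 genes described here Flicr was nearest, at 0.076, with 0.714% of candidates closer to Foxp3. Runx3 was farthest, at 0.353, with 94.9% of candidates closer. All of these points share 6 libraries, so the likeness is a description of these libraries.

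**Figure D4:**
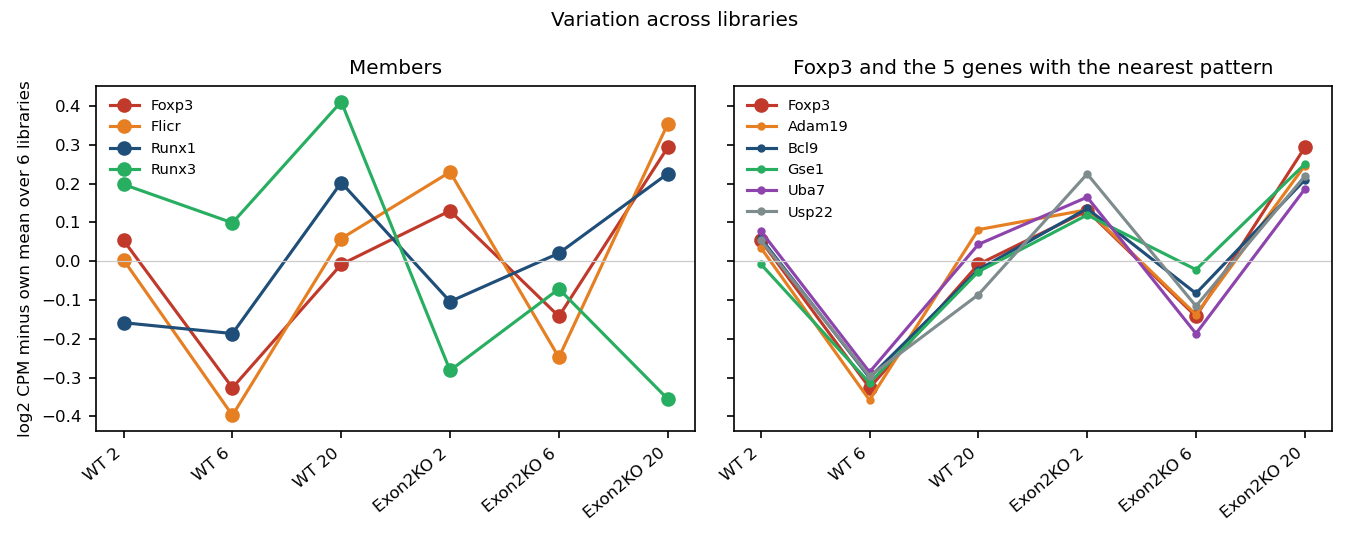
Log2 CPM of each gene minus its own mean over the 6 libraries, for Foxp3, Flicr, Runx1 and Runx3 (left) and for Foxp3 with the 5 genes of nearest pattern (right); lines join the points of 1 gene and imply no order. Foxp3 and Flicr are low in WT 6 and Exon2KO 6, while Runx3 is high in the 3 WT libraries and low in the 3 Exon2KO libraries.

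Around Foxp3, 15 other genes had their body within 100 kb, and 8 of them, Flicr included, were tested. Of these 8, 1 was called without the block and 3 with it, beside 2.33% and 9.72% of all tested genes. Syp, which encodes a synaptic vesicle protein, was called: it was at 8.16, 9.80 and 11.2 CPM in WT 2, WT 6 and WT 20 and at 21.9, 23.9 and 27.5 CPM in the Exon2KO libraries. Syp rose 2.51-fold (log2 fold change 1.33, SE 0.16, adjusted p = 0.00323), from chromosome X, 7638471 to 7653256, on the far side of Cacna1f as seen from Foxp3. With the block, Ppp1r3f (log2 fold change 0.41, adjusted p = 0.0194) and Plp2 (0.26, adjusted p = 0.0438) were called as well. Ppp1r3f, whose exons overlap those of Foxp3 and Flicr on the opposite strand, was at 17.5, 13.4 and 17.5 CPM in WT and 22.0, 19.0 and 23.2 in Exon2KO. Prickle3 (0.26, adjusted p = 0.376), Cacna1f (0.08, 0.965), Gm36995 (0.32, 0.749) and Ccdc22 (0.27, 0.778) were not called in the fit without the block, and neither were they with it. All 8 tested neighbours had positive log2 fold changes, as did 51.8% of all tested genes. They share the 6 libraries, and some share exon bases with Foxp3 or Flicr, so their signs are not separate observations.

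The wider setting of Foxp3 was described with 9 lists of 147 gene symbols, of which 142 were tested. The 147 include both Tle5 and Aes, symbols of the same gene. In the fit without the block 2 of them were called as higher in Exon2KO and 6 as lower, together 5.63% against 2.33% of all tested genes. With the block 16 were called as higher and 13 as lower, together 20.4% against 9.72% of all tested genes. The lists were chosen with earlier results of these data known, so these shares describe the lists and are no test of them. The shares of all tested genes, 2.33% and 9.72%, also serve as the reference for each list below. Without the block, 8 list genes were called, but 2 without Exon2KO 2 and 3 without WT 2 or without WT 6. Genes named below as called only with the block were named after their values were seen. The median log2 fold change over the tested genes of the lists was 0.05, against 0.0084 over all tested genes. No list of enzymes or of relatives of the 10 genes held a call in the fit without the block. The calls came from DNA-binding partners of Foxp3 and from genes of Treg identity.

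Of 20 DNA-binding partners of Foxp3, 2 rose and 3 fell without the block. Of all tested genes, 0.757% were called as higher there and 1.58% as lower. The list's median log2 fold change was 0.03. Tcf7, a factor of resting and memory-like T cells, rose from 643 ± 37.2 CPM (SD, n = 3) in WT to 1134 ± 46.3 in Exon2KO (log2 fold change 0.82, adjusted p = 0.00151). Satb1, a chromatin organizer of T cells, went from 281, 292 and 316 CPM in WT to 478, 450 and 534 CPM in Exon2KO (0.72, adjusted p = 0.00415). Ikzf2, which encodes Helios, fell (-0.66, adjusted p = 0.024) from 656, 626 and 773 CPM to 423, 379 and 501. Gata3, the factor of type 2 helper cells that Tregs also carry, fell (-0.48, adjusted p = 0.0437), as did Batf (-0.58, adjusted p = 0.0459), a factor of effector T cells that is named after its value was seen. With the block 7 rose and 6 fell, where 3.93% of all tested genes were called as higher and 5.79% as lower. The calls in this list included, named after their values were seen, Ikzf1 (0.35), Lef1 (0.45) and Bach2 (0.49) as higher. Irf4 (-0.34) and Rora (-1.04), also named after their values were seen, were called as lower.

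The list of Treg identity genes was also chosen with earlier results of these data known. The median log2 fold change of its 7 genes was -0.52. Of these 7, 4 fell and 0 rose without the block, where 1.58% of all tested genes were called as lower. Besides Ikzf2, these were Ctla4, an inhibitory receptor (131, 142 and 179 CPM in WT against 79.5, 81.9 and 89.7 in Exon2KO; log2 fold change -0.85, adjusted p = 0.00677), Il2ra, which encodes CD25 (-0.52, adjusted p = 0.0429), and Izumo1r, which encodes folate receptor 4 (-0.40, adjusted p = 0.044). With the block Tnfrsf18 was called as the fifth, where 5.79% of all tested genes were called as lower. Cd3e and Cd4, present in all T helper cells, were called in neither fit. Cd4 was nevertheless higher in every Exon2KO library, at 632, 643 and 724 CPM in WT against 746, 819 and 756 in Exon2KO. Its log2 fold change was 0.22 (adjusted p = 0.315, and 0.0665 with the block). Cd3e had overlapping groups (0.02). Foxp3 itself, measured in the same libraries, had a positive log2 fold change, given above. Beside these falls and the rises of Tcf7 and Satb1, the 4 helper T cell genes summed to 18.0, 22.3 and 18.9 CPM in WT and 32.2, 53.3 and 19.3 CPM in Exon2KO for numbers 2, 6 and 20. Cd40lg, the most abundant of them, was at 13.5 to 16.8 CPM in WT and at 26.5, 38.5 and 16.5 CPM in Exon2KO 2, 6 and 20. It was called with the block (0.82, adjusted p = 0.00837) and not without it (0.88, adjusted p = 0.240). Il2 was under the filter on low counts, at 0.281 to 0.445 CPM in Exon2KO against 0.0469 to 0.110 in WT. These WT values lay under the smallest measurable level of 3 counts, so the order of the genotypes rests on very few reads. The part of helper T cells in the calls was not tested.

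Of 12 tested forkhead genes 0 were called without the block, and the median log2 fold change was 0.05. Foxo1, which acts on the Foxp3 gene, was at 307, 278 and 342 CPM in WT and 320, 276 and 350 in Exon2KO (0.03, adjusted p = 0.960). Foxn3 went from 263, 243 and 196 CPM to 325, 319 and 292 (0.41, adjusted p = 0.104), and was called with the block (0.42, adjusted p = 5.07e-04), as were Foxk1 as higher and Foxm1 as lower. Of 13 Runx relatives and corepressors 0 were called, with a median of 0.12. The corepressor gene Aes lay at 571 ± 28.3 CPM in WT and 620 ± 12.3 in Exon2KO (SD, n = 3 each; adjusted p = 0.630), and Ncor1 at 474 ± 50.1 and 528 ± 7.94 (adjusted p = 0.592). Tle3 was called with the block (0.24, adjusted p = 0.0209).

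Of 60 tested genes in the 3 enzyme lists around Kat5, Stub1 and Usp7, 0 were called without the block and 4 with it, against 2.33% and 9.72% of all tested genes. Of 16 subunits of the TIP60 complex 0 were called in either fit, with a median log2 fold change of -0.02. The large subunits Ep400 (0.13, adjusted p = 0.758) and Trrap (0.16, adjusted p = 0.630) had overlapping groups. Among 26 acetyltransferases and deacetylases 0 were called without the block and 2 with it, Hdac4 as higher and Hdac9 as lower. Hdac7 (-0.07, adjusted p = 0.869) and Kat6a (0.13, adjusted p = 0.728) were the most abundant of that list. Among 18 ubiquitin ligases and deubiquitinases 0 were called without the block, and Nedd4l and Traf6 were called as higher with it. Tnfaip3, which encodes A20, depended on the column number, with 438, 441 and 1085 CPM in WT 2, WT 6 and WT 20 and 371, 353 and 1133 CPM in the Exon2KO libraries. Cbl had a log2 fold change of -0.02 (adjusted p = 0.961).

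Of 9 chaperone partners of Stub1 0 were called without the block, and Hspa1b was called as higher with it (0.59, adjusted p = 5.64e-04). Hsp90ab1 (-0.05, adjusted p = 0.948) and Hspa8 (-0.03, adjusted p = 0.975) were the most abundant. Among 22 regulators of Foxp3 transcription 0 were called without the block, with a median of 0.07. Ets1, which binds the Foxp3 enhancers, was at 1673 ± 9.05 CPM in WT and 1836 ± 46.6 in Exon2KO (SD, n = 3 each) without overlap (0.13, adjusted p = 0.553). Kmt2d, a histone methyltransferase, had a log2 fold change of 0.21 (adjusted p = 0.599). Tet1 and Tet3, enzymes of DNA demethylation, were called as higher with the block (0.47 and 0.28), and Uhrf1, which maintains DNA methylation, as lower (-0.24). Their relatives in the list, Tet2 (0.05), Dnmt1 (0.03), Dnmt3a (0.02) and Dnmt3b (0.20), were not called with the block. Uhrf1 was highest in number 20 of each genotype, with 51.1, 52.4 and 105 CPM in WT and 44.7, 47.3 and 81.1 in Exon2KO. Without the block its adjusted p was 0.896.

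**Figure D5:**
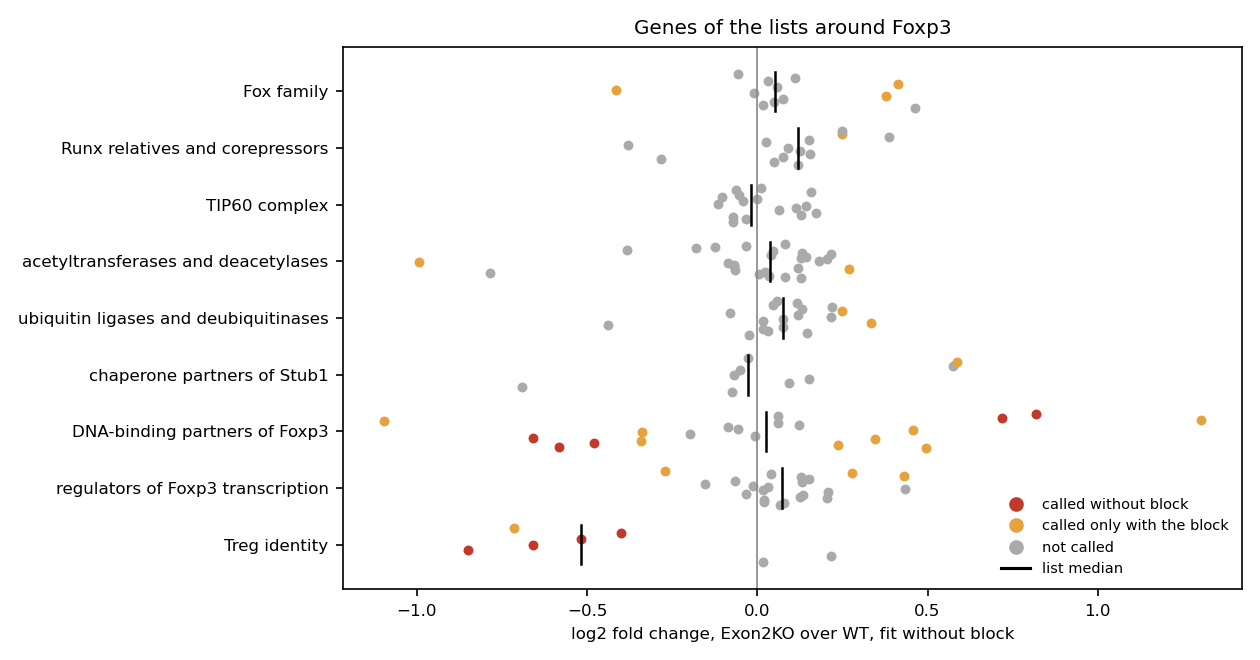
Log2 fold change of Exon2KO over WT, without a block, of every tested gene of the 9 lists, 1 row per list, with a black bar at the list's median. Red points, called without the block, lie only in the rows of DNA-binding partners and Treg identity, and the Treg identity median is the one far from 0, at -0.52.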

How the data were processed

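The authors deposited 1 table with a column of raw counts per library, per the file headers. The table adds their own comparison of the genotypes. Its group means are a scaled count signal made by the authors, per the file headers. Its log2 fold changes were computed by the authors, per the file headers. Its p-values and adjusted p-values were likewise computed by the authors, per the file headers. The submitters' processing notes name HISAT2 2.0.5, StringTie 1.3.3b, featureCounts 1.5.0-p3, DESeq2 1.16.1 and mm10, with no settings. Column names give a genotype but no single titled sample, so 1 measure per library, the counts, was kept and 6 other per-library columns were not used. Levels and ratios per unit of length, planned on those columns, therefore used CPM divided by the deposited gene length.

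Counts were tested with edgeR 4.0.16 in R 4.3.3 (filterByExpr, 14919 genes tested, TMM, robust quasi-likelihood fit, no covariate) over all 6 libraries, with Benjamini-Hochberg adjustment over all tested genes and a threshold of 0.05. The SE is the absolute log2 fold change over the square root of F. CPM use TMM-scaled totals. DESeq2 1.42.0 and limma 3.58.1 served as alternatives. Intervals and the floor of 3 counts cover the fit and counting error only. The scripts were tested on simulated data.

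Deviations from the genotype means correlated within each column number (0.273, 0.353 and 0.465 for 2, 6 and 20, over 14848 genes). All exceed 0.1, so the numbers were taken as pairs and the fit with that block is given beside the 10 genes and, for other named genes, where it changes a call. The pairing comes from the shared column numbers and the data, not from a label. The cutoff of 0.1 was a choice, and correlations between unlike numbers were not computed for comparison. The correlations share the same genotype means, so they are not separate observations. Replicate titles call the samples biological replicates. No 2 libraries of a genotype agreed within counting noise (chi-square per degree of freedom 8.87 to 26.4).

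The genes and lists were chosen with earlier results of these data known. Named are the 10 genes, genes within 100 kb of Foxp3, the 5 nearest in pattern, and of each list up to 4 called genes or, with fewer than 2, the most abundant up to 2. Other list genes, those called only with the block among them, were named after their values were seen. Tle5 was counted under its older symbol Aes. Of the 55840 identifiers 55394 are in GENCODE mouse release 21. That annotation gave exons and transcripts, and RefSeq gave promoters.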

Additional observations from a re-analysis of the deposited data

How the results depend on the processing

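Each of the 10 genes was refitted under 15 alternatives, 150 values in all. Of these, 141 kept the direction and the side of the threshold, 7 passed the threshold where the reported fit did not, and 2 changed sign. Foxp1 passed under DESeq2 (0.29, adjusted p = 0.0261), the replicate block (0.29, 0.00456) and the replicate block with RLE size factors (0.29, 0.00432). Runx3 passed with no count filter (-0.48, 0.00207), under DESeq2 (-0.47, 0.00988), the replicate block (-0.47, 0.0135) and the block with RLE size factors (-0.47, 0.0164). Over all alternatives the adjusted p ran from 0.00432 to 0.465 for Foxp1 and from 0.00207 to 0.256 for Runx3. With 1 library left out, uncalled values changed sign for Runx1 (range -0.0088, without Exon2KO 20, to 0.23), Stub1 (-0.13 to 0.14, without WT 6) and the log2 difference of the Flicr to Foxp3 ratio (-0.0044, without Exon2KO 2, to 0.098). The same fits moved other uncalled values by over 1.5 times without a change of sign: Foxp3 (0.08 to 0.29), Flicr (0.10 to 0.38), Cbfb (0.02 to 0.16) and Foxp4 (-0.15 to -0.05). The per-length ratios were not run on a second unit. With the block, no other of the 10 genes gained or lost a call.

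The count of these genes called was 0 in the reported fit, 1 with no count filter, and 2 under DESeq2, the block and the block with RLE size factors. Over all tested genes the count was 348, then 617 with no count filter, 660 under DESeq2, 1450 with the block, 1463 with the block and RLE size factors, and 86 to 314 with 1 library left out. It was lowest without Exon2KO 2 (86), and 131 without WT 2, 156 without WT 6 and 204 without WT 20. For the 9 lists the count was 8, then 15 with no count filter, 17 under DESeq2, 29 with the block, 30 with the block and RLE size factors, and 2 to 9 with 1 library left out. The cause of these shifts was not tested. Fits with 1 library left out keep 2 libraries in a group. The block with RLE size factors and the fit without both libraries numbered 20 were chosen after seeing the data. Scaling by TMM, RLE size factors or the upper quartile put the median log2 fold change of all genes at 0.0084, 0.0095 and -0.0068.

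The counts cannot show exon 2 itself, splicing or protein. For Flicr, with 215 to 354 counts per library, the 95% interval spans -0.19 to 0.65. With 3 libraries per genotype, a missed threshold does not show that levels were equal.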
